A study of Mus musculus with 2 samples.

Results

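The 32 genes described here encode the constitutive subunits of the proteasome, the protease that degrades ubiquitin-tagged proteins, together with chaperones that assemble it. They were picked by gene symbol from the 31053 genes of the files, and all 32 were found in both libraries. They comprise 11 subunits of the core particle (Psma1 to Psma7 and Psmb1 to Psmb4), 18 subunits of the regulatory particle (Psmc1 to Psmc6, Psmd1 to Psmd4, Psmd6 to Psmd8, Psmd11 to Psmd14 and Adrm1) and 3 chaperones of regulatory particle assembly (Psmd5, Psmd9 and Psmd10). The catalytic beta subunits, which exist in a constitutive and an interferon-inducible form, are not among them and serve as a comparison.

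The core particle is a barrel of stacked rings, with alpha subunits at its gates and beta subunits around the chamber where proteins are cut. The regulatory particle caps the barrel: its ATPases unfold substrates and thread them in, Psmd2, Psmd4 and Adrm1 dock ubiquitin or its carriers, and Psmd14 cuts the ubiquitin chain off. Subunits are needed in fixed proportions, and the transcription factor NRF1, encoded by Nfe2l1, is known to raise their genes together when proteasome activity falls short. UBD (FAT10) is a small ubiquitin relative that delivers its targets to the proteasome without ubiquitin.

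The tumours came from MC38 cells, a colon carcinoma line of the mouse, inoculated under the skin. Dissociated cells were profiled by droplet sequencing of the 3' ends of RNA. One group is control tumours and the other is tumours that overexpress UBD, each with 1 library, and all carry the MC38 background. The sources used here do not give the mouse strain, age or sex, the number of tumours pooled, how UBD was expressed or any drug treatment. With 1 library per group there is no replicate check and no test, so every value describes these 2 libraries. Intervals are 95% intervals for counting error alone.

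After filtering, 13587 control cells with 162062009 UMIs and 13021 UBD cells with 189085664 UMIs were kept, with medians of 4338 and 12155 UMIs a cell. The libraries shared 71 cell barcodes. Cells were placed in 6 classes by marker UMIs: 4580 control and 7591 UBD cells as tumour (Cdkn2a), 2196 and 1740 as macrophage (C1qa), 370 and 399 as T (Cd3e), 192 and 20 as NK (Ncr1), 144 and 742 as osteoclast-like (Acp5 with Ctsk), and 78 and 22 as endothelial (Cdh5). No class took 42.4% of control cells and 17.1% of UBD cells. In each host class the summed markers of that class, which include the genes that set it, exceeded those of every other host class. The 6 tumour genes, mostly Lgals1 and S100a6, summed to more than the own markers in some classes. These were T cells (6949 against 6114 CPM in control, 6600 against 6275 CPM in UBD), UBD NK cells (3765 against 3249 CPM) and control endothelial cells (6713 against 3026 CPM). In the tumour class the keratins Krt8 (10.4 and 38.1 CPM) and Krt18 (12 and 76.3 CPM), which mark epithelium, were low, while 5 fibroblast genes such as Col1a1 and Col3a1 summed to 1578 CPM among control and 1460 CPM among UBD cells. The class is therefore called tumour for its Cdkn2a rule. That class had almost no Y-linked transcripts, 1.62 and 0.377 CPM over 4 genes, against 63.2 to 167 CPM in the host classes. Mouse Ubd gave 44 UMIs in control and 179 UMIs in UBD tumour cells, 0.357 and 1.18 CPM. A 3' tag misses a transgene without the mouse 3' end, so this level is no measure of the overexpression.

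Promoters of 27 of the 32 genes, 29 in all, were found in a RefSeq table of the GRCm38.p6 build that covers 250 bases before to 50 bases after each start. The antioxidant response element, to which NRF1 binds, was searched as TGACNNNGC on both strands because of that factor's role in controlling these genes. It lay in 4 of the 29 promoters (13.8%) and in 12.4% of the 32851 promoters counted, a number that leaves out part of the table. The 4 matches are shown in capitals in windows of 80 bases, all read along the plus strand, on which the 4 genes lie.
Adrm1, chr2:180171391-180171470: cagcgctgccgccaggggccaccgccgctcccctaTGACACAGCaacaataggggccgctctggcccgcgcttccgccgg
Psmc6, chr14:45329574-45329653: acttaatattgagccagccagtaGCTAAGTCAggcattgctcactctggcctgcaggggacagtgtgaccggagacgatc
Psmd12, chr11:107479278-107479357: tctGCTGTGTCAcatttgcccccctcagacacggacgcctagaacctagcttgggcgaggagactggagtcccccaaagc
Psmd9, chr5:123228110-123228189: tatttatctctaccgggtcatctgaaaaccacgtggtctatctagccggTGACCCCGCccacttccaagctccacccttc
In Psmc6 and Psmd12 the match is on the reverse strand. A CCAAT box (CCAAT) lay in 12 member promoters (41.4%, against 37.4% of those counted). The interferon-stimulated response element lay in 3 (10.3%, against 3.44%), those of Psmb3, Psmd4 and Psmd9. A match is a string of letters and not a shown binding site.

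In tumour cells the proteasome genes stood at nearly the same level in both libraries. For each class, UMIs of a gene or group were added up and divided by all UMIs of the class, as counts per 1e6 UMIs (CPM). In such shares, more transcripts per cell and fewer transcripts of other genes cannot be told apart. The core subunits together made up 4142 CPM (4131 to 4154) in control and 4197 CPM (4187 to 4207) in UBD tumour cells, a ratio of 1.01 (1.01 to 1.02). The regulatory subunits summed to 2945 CPM (2935 to 2954) and 2820 CPM (2811 to 2828), a ratio of 0.958 (0.953 to 0.962). The 3 assembly chaperones summed to 172 and 190 CPM, a ratio of 1.10 (1.08 to 1.12).

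None of the 32 genes differed by 1.5-fold or more between the libraries in tumour cells. Among all 13807 genes with at least 50 UMIs, 25.7% did, and among the 2833 genes with at least as many UMIs as the lowest member 9.67% did. At 1.25-fold, 1 of 32 genes passed, where 45.0% of all genes and 27.4% of the abundant ones did. The log2 ratios ran from -0.40 to 0.25 with a median of -0.01, beside a median of -0.03 over all genes. In single tumour cells the core share had a median of 3785 CPM in the control library, with quartiles of 2882 and 4643 CPM, and of 4041 CPM in the UBD library, with quartiles of 3289 and 4834 CPM. The regulatory share had a median of 2586 CPM in both libraries. A median of 29 of the 32 genes was detected per control tumour cell and 28 per UBD tumour cell. The quartile ranges of the libraries overlapped for both particles.

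**Figure D1:**
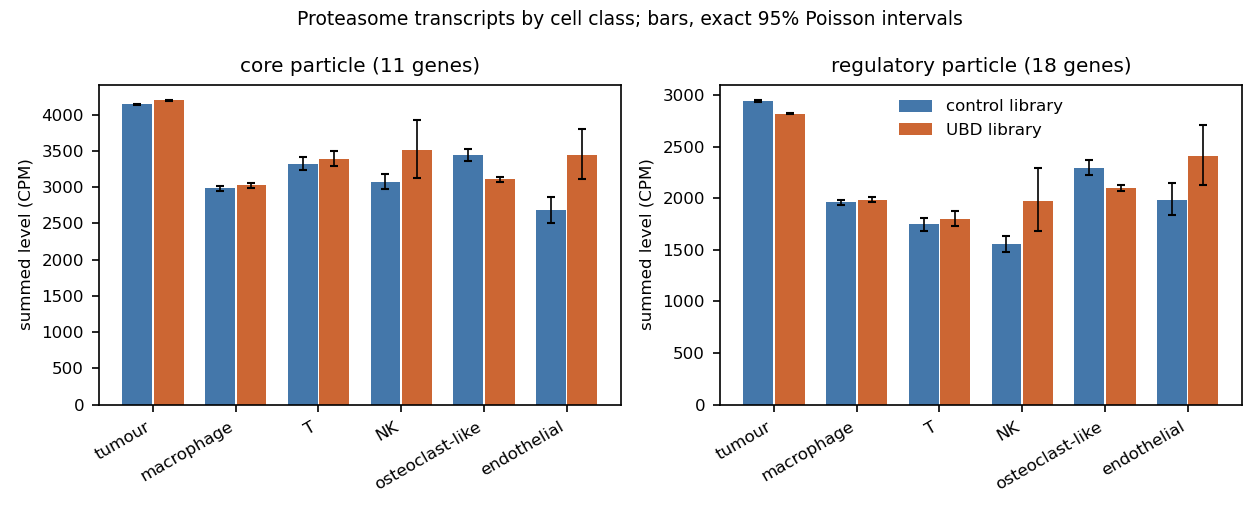
Summed level in CPM (vertical axes, from 0) of the 11 core and the 18 regulatory subunits in each cell class, control library in blue and UBD library in orange, with exact 95% Poisson intervals. The tumour bars are the highest in both panels, and the NK and endothelial UBD bars rest on 20 and 22 cells.

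Among the alpha subunits, which form the outer rings and the gate, 4 of 7 were higher and 3 lower in UBD tumour cells. Psma5 had the highest ratio of all 32 genes, with 241 CPM in control and 287 CPM in UBD tumour cells, 1.19-fold (1.17 to 1.21). Psma4 stood at 282 and 305 CPM, 1.08-fold (1.07 to 1.10). At the low end were Psma6 with 191 and 182 CPM, a ratio of 0.955 (0.938 to 0.971), and Psma2 with 281 and 269 CPM, a ratio of 0.960 (0.947 to 0.974). None of these 4 ratios reached 1.25-fold.

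The beta subunits held the one gene that stood apart. Psmb2 (ENSMUSG00000028837, GRCm38 chromosome 4, 126677630 to 126709714, plus strand), a structural beta subunit without a catalytic site, had 432 CPM in control and 328 CPM in UBD tumour cells. The ratio was 0.760 (0.751 to 0.769), from 53171 and 49638 UMIs, while the other 3 beta subunits of the set had ratios above 1. Psmb1 stood at 481 and 530 CPM, a ratio of 1.10 (1.09 to 1.12), and Psmb4 at 401 and 437 CPM, a ratio of 1.09 (1.08 to 1.10). Psmb3, at 412 and 427 CPM, had a ratio of 1.04 (1.02 to 1.05). Psmb2 was lower in the UBD library in each of 10 states of tumour cells set by cycling, interferon response and mitochondrial share, with log2 ratios from -0.43 to -0.22. These states overlap in their cells and are not separate checks. Among interferon-responding cells, split into cycling and other cells, no member was lower by 1.25-fold. In cells with over 5% mitochondrial UMIs another member was lowest, with a log2 ratio of -0.50. In tumour cells of 15000 to 30000 UMIs its ratio was 0.791, and over 8 alternatives in all it ran from 0.749 to 0.835.

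The ATPases of the base, which unfold substrates, split evenly, with 3 of 6 higher and 3 lower. Psmc4 had 90.4 CPM in control and 95.7 CPM in UBD tumour cells, a ratio of 1.06 (1.03 to 1.09), and Psmc1 had 76.0 and 79.8 CPM, a ratio of 1.05 (1.02 to 1.08). The lowest were Psmc6, at 217 and 196 CPM with a ratio of 0.901 (0.886 to 0.916), and Psmc2, at 173 and 164 CPM with a ratio of 0.948 (0.931 to 0.966). Psmc3, the ATPase that contacts ubiquitin chains, was at 155 and 153 CPM, and its interval included 1 (0.968 to 1.01).

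Of the 12 other base and lid subunits, 10 were lower and 2 higher in UBD tumour cells. The median log2 ratio over all genes was itself -0.03. Most of the lower directions depended on the setting: of the 17 members below 1 in tumour cells, 14 turned above 1 under at least 1 of 8 alternatives, and Psmb2, Psmd7 and Adrm1 did not. The 15 members above 1 stayed above it in all 8. The lowest was Psmd7 (ENSMUSG00000039067, chromosome 8, 107580381 to 107588464, minus strand), the inactive partner of the deubiquitinase Psmd14, at 430 and 365 CPM with a ratio of 0.848 (0.838 to 0.858). Adrm1, a ubiquitin receptor, followed with 96.9 and 85.8 CPM, a ratio of 0.885 (0.863 to 0.907). Psmd14 itself was at 127 and 136 CPM, a ratio of 1.07 (1.05 to 1.09), so the paired lid subunits Psmd7 and Psmd14 went opposite ways by small amounts. Psmd13, a structural lid subunit, had 73.9 and 82.0 CPM, a ratio of 1.11 (1.08 to 1.14). Psmd4, also a ubiquitin receptor, was at 237 and 230 CPM, a ratio of 0.968 (0.953 to 0.984). All 3 assembly chaperones were higher in the UBD library: Psmd9 at 65.3 and 77.3 CPM with a ratio of 1.18 (1.15 to 1.22), Psmd5 at 45.7 and 48.2 CPM with a ratio of 1.06 (1.02 to 1.09), and Psmd10 at 61.2 and 64.3 CPM with a ratio of 1.05 (1.02 to 1.08). Of the 4 genes with the response element printed above, Adrm1, Psmc6 and Psmd12 (220 and 216 CPM, a ratio of 0.983) were lower and Psmd9 was higher.

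**Figure D2:**
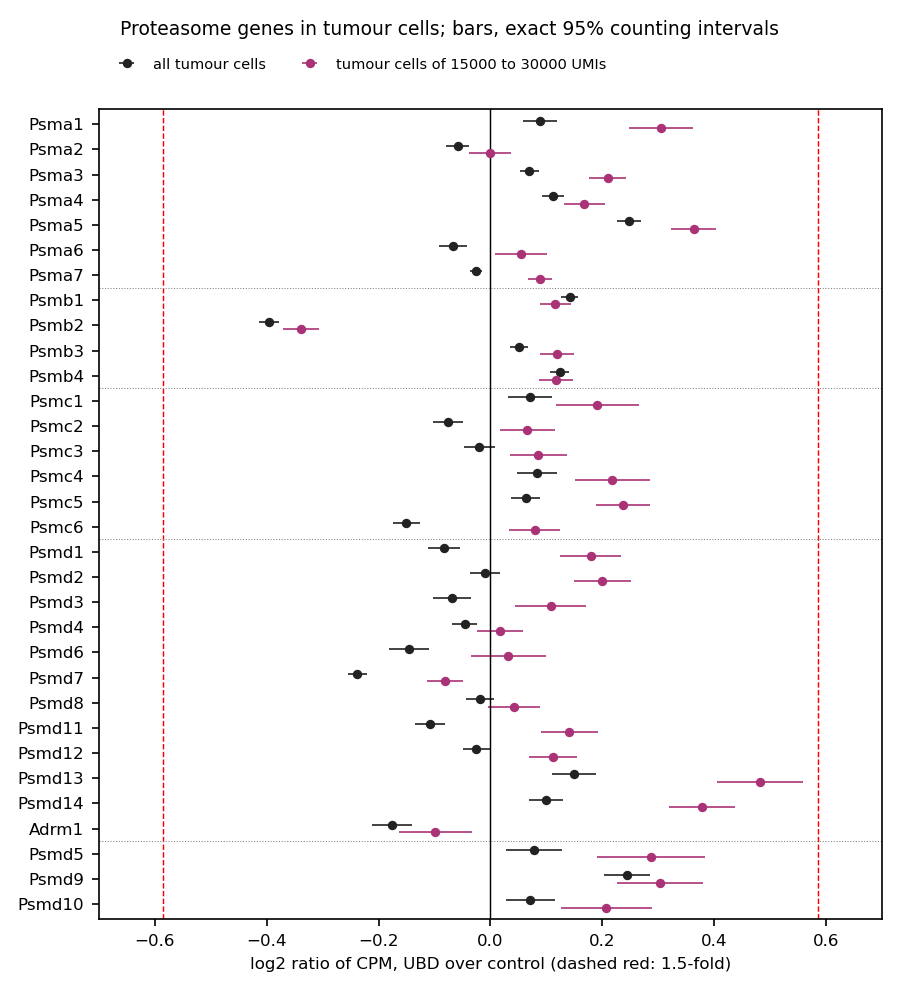
The log2 ratio of CPM, UBD over control (horizontal axis), for each of the 32 genes in all tumour cells (black) and in tumour cells of 15000 to 30000 UMIs (magenta), with exact 95% counting intervals and dashed lines at 1.5-fold. No point passes the dashed lines, Psmb2 lies lowest in both series, and most magenta points lie to the right of the black ones.

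Depth moved with these values. The median tumour cell had 23300.5 UMIs in the control library, against 17354 UMIs with UBD. In tumour cells of 15000 to 30000 UMIs, 1311 control and 3496 UBD cells with medians of 22532 and 20359.5 UMIs, the core ratio was 1.07 (1.06 to 1.07). The regulatory ratio, below 1 over all tumour cells, was 1.07 (1.06 to 1.08) in that range, so its direction depends on which cells are compared. Psmd13 reached 1.40, Psmd14 1.30 and Psma5 1.29 there, and again no member passed 1.5-fold, where 25.5% of all genes did. Cells with over 5% mitochondrial UMIs were 30.3% of control and 16.3% of UBD tumour cells. Among them the core ratio was 1.18 (1.17 to 1.19), and 5 of 32 genes passed 1.5-fold, all higher in the UBD library (38.5% of all genes passed either way): Psma1, Psma5, Psmd10, Psmd13 and Psmd14. Among cells with at most 5% the core ratio was 0.985 (0.981 to 0.989) and the regulatory ratio 0.939 (0.934 to 0.943), with 0 members past 1.5-fold (22.6% of all genes). A list of 11 genes known to respond to tissue dissociation was lower in UBD tumour cells, 7 of 11 by 1.5-fold or more, and Gm42418, which collects ribosomal RNA reads, was at 2547 and 999 CPM. Their part in the proteasome values was not tested.

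Within each library the depth of a tumour cell went with its proteasome share. From the lowest to the highest depth tertile the core level was 2904, 3980 and 4397 CPM among control cells and 3952, 4175 and 4285 CPM in the UBD library. For the regulatory subunits it was 2119, 2633 and 3208 CPM among control cells and 2282, 2620 and 3095 CPM among UBD cells. The core level of the lowest control tertile, with a median of 6811 UMIs and 5.98% mitochondrial UMIs, lay well below the other 5, while the regulatory level was low in the lowest tertile of both libraries. Between the highest and lowest tertile, 20 of 32 genes were at least 1.5-fold higher among control cells (14.8% of all genes were) and 5 of 32 among UBD cells (11.6% of all genes). The 5 in the UBD library, Psmc1, Psmd2, Psmd11, Psmd13 and Psmd14, were all regulatory and were also among the 20 of the control. Over the tertiles of the UBD library, the core ratio was thus 1.08 and the regulatory ratio 1.36, while in the control library both were 1.51. The tertiles were set within each library and spanned unlike depths. Median depths of the lowest and highest tertile were 6811 and 44581 UMIs in control and 10418 and 29000.5 UMIs in UBD cells. The ratios and gene counts of the libraries are therefore not on a like scale.

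Cycling tumour cells, those with transcripts of proliferation genes such as Mki67 and Top2a, had a larger share of proteasome transcripts than the others in both libraries, and the regulatory subunits differed more than the core. Core levels were 4300 CPM in cycling and 3808 CPM in other control cells, 1.13-fold (1.12 to 1.14), and 4419 against 3886 CPM in UBD cells, 1.14-fold (1.13 to 1.14). Regulatory levels were 3130 against 2552 CPM in the control, 1.23-fold (1.22 to 1.24), and 3079 against 2457 CPM in the UBD library, 1.25-fold (1.25 to 1.26). At least 1.25-fold higher in cycling cells were 10 of 32 genes in the control library (17.4% of all genes) and 14 of 32 in the UBD library (20% of all genes). Of the 18 regulatory genes 9 passed in both libraries: the ATPases Psmc1 to Psmc5, Psmd1, Psmd7, Psmd13 and Adrm1. Among core genes Psmb3 alone passed in control cells and Psma1 alone in UBD cells. Psmb1 and Psmd8 did not follow, with ratios of 0.973 and 0.953 among control cells and 0.957 and 0.990 among UBD cells.

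Cycling cells were also deeper, with medians of 28888 against 17502.5 UMIs in the control and 21790 against 14250 UMIs in the UBD library. Within 15000 to 30000 UMIs the cycling ratios were 1.04 (core) and 1.08 (regulatory) among control cells and 1.12 and 1.16 among UBD cells. In that range cycling and other control cells had close medians, 22593 and 22476.5 UMIs. UBD cycling cells were still deeper, 21509 against 18958 UMIs, so depth was not matched there. At least 1.25-fold higher in cycling cells were then 4 genes in control (25.9% of all genes) and 3 in UBD cells (16.4% of all genes). Psmc3 was the one in both libraries. Lower by that much were 1 gene in control, with a log2 ratio of -0.46, and 0 in UBD cells. Of all genes, 43.6% in control and 29.7% in UBD cells passed 1.25-fold either way. The regulatory ratio stayed above the core ratio in both libraries in that range.

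Interferon-responding tumour cells, with transcripts such as Ifit1, Isg15 and Cxcl10, made up 75.7% of control and 15.9% of UBD tumour cells. The constitutive subunits differed little with this state. Core levels were 4115 CPM in responding and 4213 CPM in other control cells, and 4349 against 4171 CPM in the UBD library. Regulatory levels were 2910 against 3036 CPM and 2736 against 2834 CPM. In neither library did any of the 32 genes pass 1.25-fold between the states, where 31.3% of all genes among control and 24.3% among UBD cells did. The inducible catalytic subunits Psmb8, Psmb9 and Psmb10, in contrast, summed to 339 CPM in responding and 165 CPM in other control cells, and to 390 and 129 CPM in the UBD library. Within responding cells the UBD over control ratio was 1.06 for the core and 0.940 for the regulatory subunits, and within the others 0.990 and 0.934.

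**Figure D3:**
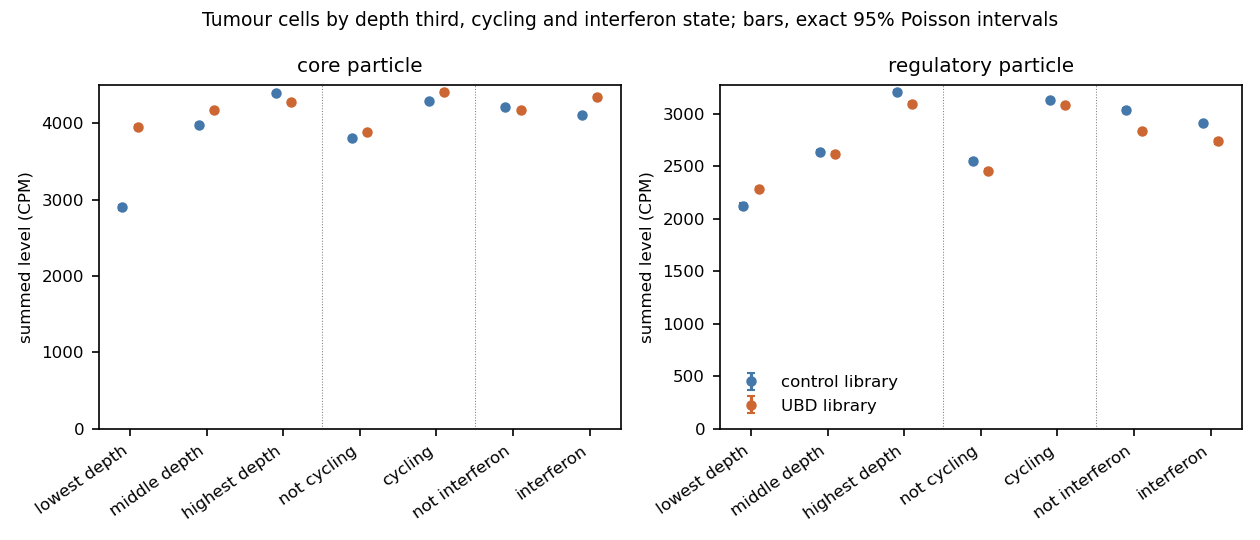
Summed core and regulatory levels in CPM (vertical axes, from 0) of tumour cells by depth tertile, cycling state and interferon state, control library in blue and UBD library in orange, with exact 95% Poisson intervals that are mostly smaller than the points. Levels are lowest in the shallowest control cells and higher in cycling than in other cells, and differ little between interferon states.

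In macrophages the core and regulatory sums also stood close. Core levels were 2983 CPM (2950 to 3017) in control and 3029 CPM (2995 to 3062) in UBD macrophages, a ratio of 1.02 (0.999 to 1.03). Regulatory levels were 1959 and 1987 CPM, a ratio of 1.01 (0.995 to 1.03). Of the 32 genes, 1 passed 1.5-fold, where 28.8% of all genes did. At 1.25-fold 6 passed, where 54.5% did: 5 were higher in the UBD library (21.0% of all genes) and 1 lower (33.5%). Over all genes the median log2 ratio was -0.08, and with genes centred on it the core and regulatory log2 ratios became 0.11 and 0.10. Gm42418 was at 11166 CPM in control and 2861 CPM in UBD macrophages, and 9 of the 11 dissociation genes passed 1.5-fold in the same direction, lower in UBD cells. Their part in these values was not tested.

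The 6 macrophage genes were all non-ATPase subunits or chaperones of the regulatory particle. Psmd5 (chromosome 2, 34849734 to 34874968, minus strand), a chaperone of base assembly, was at 12.9 CPM in control and 19.6 CPM in UBD macrophages, a ratio of 1.52 (1.21 to 1.91), from 129 and 206 UMIs. 4 alternative settings brought it under 1.5-fold, and its range over 8 alternatives was 1.43 to 1.67. Psmd1, the large scaffold of the base, was at 66.0 and 92.4 CPM, 1.40-fold (1.27 to 1.55). Psmd6, a lid subunit, was at 61.3 and 83.1 CPM, 1.36-fold (1.22 to 1.51). Psmd10 was at 33.9 and 44.8 CPM, 1.32-fold (1.15 to 1.52), and Psmd13 at 84.7 and 107 CPM, 1.27-fold (1.16 to 1.39). Adrm1 was the one lower gene, at 73.6 and 56.0 CPM with a ratio of 0.761 (0.682 to 0.849). Psmd5, Psmd1 and Psmd13 overlap other genes (Cutal; Htr2b and Gm21972; Sirt3). So do Psma2 (AW209491), Psma4 (AY074887), Psma5 (1700010K24Rik), Psmc3 (Slc39a13) and Psmd9 (Gm26745, Gm43409 and Hpd), which were named above for tumour cells. The sources used here do not say whether counting used strand, so reads of overlapping genes may be mixed.

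The remaining macrophage members differed by less. Among alpha subunits Psma4 (253 and 281 CPM, ratio 1.11) and Psma5 (156 and 172 CPM, ratio 1.11) were highest, and Psma2 (298 and 283 CPM, ratio 0.948) and Psma6 (216 and 223 CPM, ratio 1.03) lowest. Beta subunits ranged from Psmb1 (295 and 318 CPM, ratio 1.08) and Psmb4 (291 and 282 CPM, ratio 0.970) down to Psmb2 (274 and 251 CPM, ratio 0.915) and Psmb3 (325 and 278 CPM, ratio 0.857). For ATPases the range ran from Psmc4 (86.5 and 91.6 CPM, ratio 1.06) and Psmc1 (63.8 and 63.5 CPM, ratio 0.996) to Psmc5 (115 and 104 CPM, ratio 0.899) and Psmc2 (84.5 and 75.3 CPM, ratio 0.891). Psmd11 was at 95.3 and 83.7 CPM, a ratio of 0.879, and the chaperone Psmd9 at 51.7 and 50.8 CPM, a ratio of 0.982. Over 8 alternatives, 1 of the 17 macrophage members above 1 and 8 of the 15 below 1 changed direction.

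**Figure D4:**
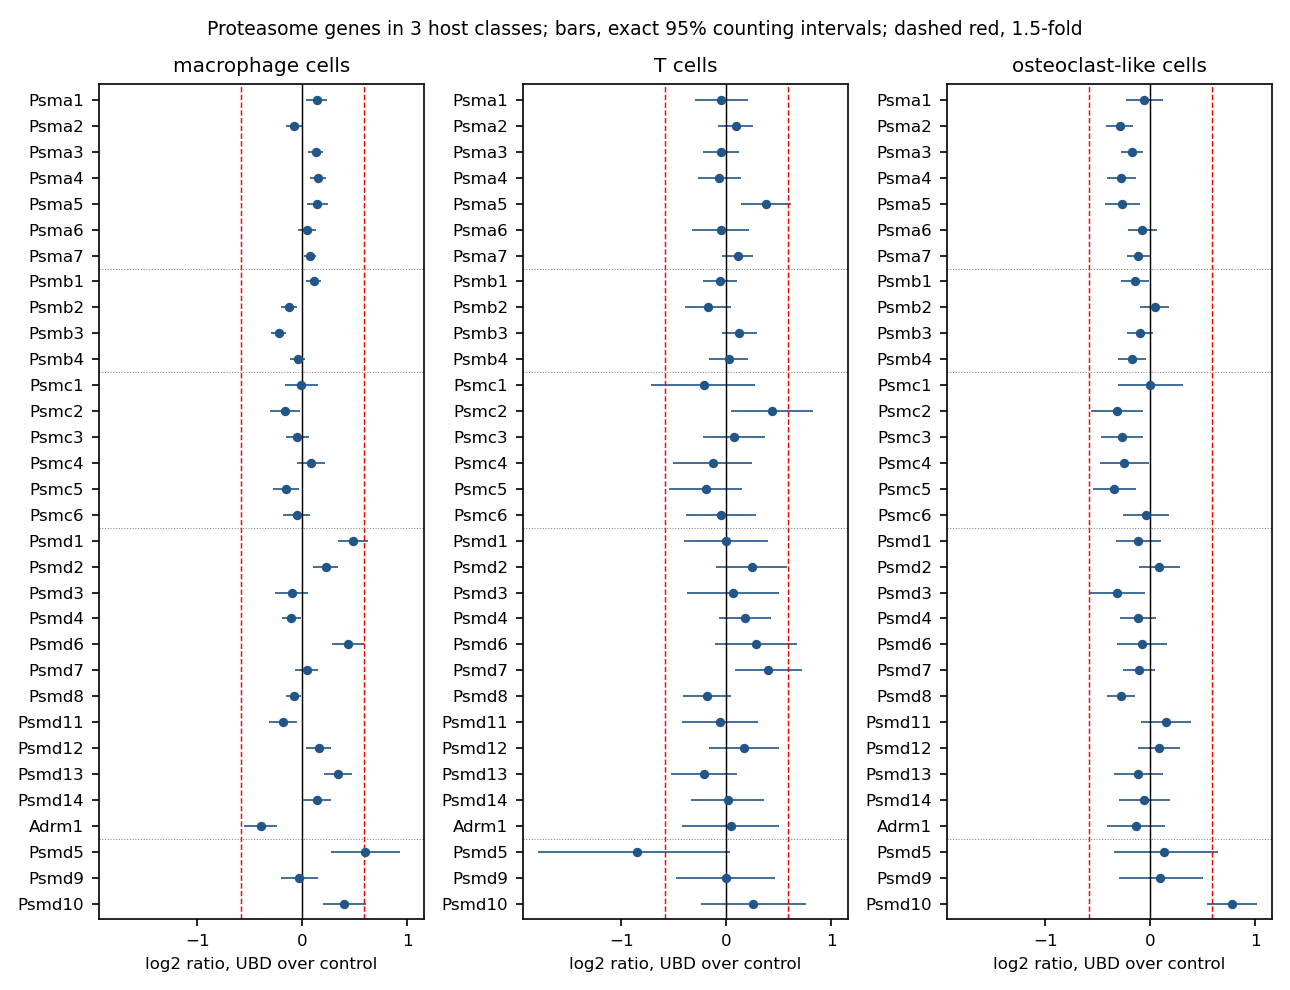
The log2 ratio of CPM, UBD over control (horizontal axes), for each of the 32 genes in macrophage, T and osteoclast-like cells, with exact 95% counting intervals and dashed lines at 1.5-fold. Psmd5 in macrophages and T cells and Psmd10 in osteoclast-like cells lie past the lines.

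In T cells core levels were 3323 and 3395 CPM, a ratio of 1.02 (0.983 to 1.06), and regulatory levels 1746 and 1799 CPM, a ratio of 1.03 (0.976 to 1.09). Of 32 genes, 1 passed 1.5-fold (15.6% of all genes), the chaperone Psmd5, from 36 and 16 UMIs with an interval that included 1 (0.288 to 1.03). The core ranged from Psma5 at 166 and 216 CPM, 1.30-fold (1.10 to 1.54), to Psmb2 at 243 and 216 CPM, a ratio of 0.886 (0.761 to 1.03). The regulatory range ran from Psmc2 at 63.9 and 86.5 CPM, 1.35-fold (1.03 to 1.77), to Psmc1 at 51.0 and 44.0 CPM, a ratio of 0.863 (0.610 to 1.21). The UBD T cells carried more fibroblast transcripts, 1347 against 185 CPM over 5 genes, which tumour cells also had; their part in these values was not tested.

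Osteoclasts are bone-resorbing cells of the macrophage lineage, and the osteoclast-like class, which expressed Acp5, Ctsk and Mmp9, had lower sums in the UBD library. Core levels were 3440 and 3108 CPM, a ratio of 0.904 (0.879 to 0.929), and regulatory levels 2297 and 2098 CPM, a ratio of 0.914 (0.884 to 0.945). With all cells weighted equally the regulatory log2 ratio was 0.00, so that difference was not seen when each cell counted equally. The core ranged from Psmb2 at 278 and 286 CPM, a ratio of 1.03 (0.936 to 1.13), to Psma2 at 337 and 275 CPM, a ratio of 0.817 (0.748 to 0.893). The regulatory subunits ranged from Psmd11 at 91.5 and 101 CPM, a ratio of 1.11 (0.940 to 1.31), to Psmc5 at 128 and 101 CPM, a ratio of 0.789 (0.684 to 0.914).

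One of the 32 genes passed 1.5-fold in osteoclast-like cells, where 20% of all genes did. Psmd10 (chromosome X, 140948429 to 140956728, minus strand), known as gankyrin, is an ankyrin-repeat chaperone of the base that also binds the cell cycle regulator RB. It stood at 89.3 CPM in control and 153 CPM in UBD cells, 1.72-fold (1.46 to 2.03), from 164 and 1458 UMIs. Over 7 alternatives its ratio ran from 1.55 to 2.03. Against the other classes Psmd10 was highest in osteoclast-like cells in both libraries: it was at 61.2 and 64.3 CPM in tumour, 33.9 and 44.8 CPM in macrophage and 41.6 and 49.9 CPM in T cells. NK cells (30 and 4 UMIs) and endothelial cells (6 and 5 UMIs) gave 27.6 and 46.9 CPM and 17.9 and 44.0 CPM. Markers of the class differed too: the 7 osteoclast genes summed to 17587 CPM in control and 25150 CPM in UBD cells. Acp5 (5844 and 9468 CPM) and Ctsk (6900 and 8882 CPM), which set the class, were higher in UBD cells. So were Mmp9, Atp6v0d2 and Itgb3, while Ocstamp and Dcstamp were nearly level. The 7 macrophage genes summed to 1618 and 1500 CPM, but their members went both ways. C1qa (213 and 82.4 CPM), C1qb, C1qc and Adgre1 were lower in UBD cells, and Csf1r and Cd68 were higher. The 6 tumour genes summed to 3646 and 1791 CPM there, and Gm42418 was at 4069 and 1337 CPM. Their part in the Psmd10 difference and in the lower sums was not tested.

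NK and endothelial cells were too few in the UBD library for firm levels. In NK cells core levels were 3072 and 3507 CPM, a ratio of 1.14 (1.01 to 1.29), and regulatory levels 1555 and 1971 CPM, a ratio of 1.27 (1.07 to 1.49). With 28 of 32 genes at 50 or more UMIs, 11 passed 1.5-fold (37.0% of all genes), of which Psma6 (136 and 282 CPM, ratio 2.07, 1.29 to 3.20) and Psmc5 (91.0 and 199 CPM, ratio 2.19, 1.23 to 3.69) had intervals that left out 1. Lowest were Psmb4 in the core (273 and 211 CPM, ratio 0.773, 0.452 to 1.24) and Psmd6 in the regulatory particle, from 82 and 2 UMIs (ratio 0.311, 0.0371 to 1.16). Under a stricter class rule the log2 ratio of Psmc5 turned to -0.30 and that of Psmb4 to 0.51. The 7 NK genes summed to 8289 and 3249 CPM and the 7 T genes to 760 and 950 CPM in these cells; their part in the ratios was not tested.

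In endothelial cells core levels were 2685 and 3445 CPM, a ratio of 1.28 (1.14 to 1.45), and regulatory levels 1986 and 2405 CPM, a ratio of 1.21 (1.05 to 1.40). With 20 of 32 genes at 50 or more UMIs, 9 passed 1.5-fold (42.0% of all genes). Intervals left out 1 for Psma1 (ratio 2.21, 1.29 to 3.74), Psma2 (1.60, 1.09 to 2.32), Psma3 (1.71, 1.15 to 2.50), Psma7 (1.59, 1.18 to 2.13) and Psmc4 (2.47, 1.48 to 4.09). Lowest were Psma6 at 161 and 106 CPM in the core (ratio 0.655, 0.319 to 1.24) and Psmc2 at 129 and 61.7 CPM in the regulatory particle (ratio 0.480, 0.182 to 1.08). Under a stricter class rule the log2 ratio of Psmc2 turned to 0.43, that of Psma2 to -0.28 and that of Psmc4 to -0.27. Where host markers took priority over Cdkn2a none passed 1.5-fold. In these cells Cdkn2a was at 269 and 106 CPM, and the 6 tumour genes, Cdkn2a among them, summed to 6713 and 4229 CPM. The 7 endothelial genes summed to 3026 and 4704 CPM. The 7 macrophage genes summed to 691 and 238 CPM, the 5 fibroblast genes to 556 and 194 CPM, and Gm42418 was at 17792 and 6977 CPM. Higher in UBD cells were the sums of 5 dendritic genes, mostly Siglech (185 and 238 CPM), and of the 7 osteoclast genes (86.7 and 167 CPM). Their part in these ratios was not tested.

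Compared with tumour cells of the same library, host cells had a smaller share of proteasome transcripts, and the regulatory particle was further down than the core in macrophages, T cells and NK cells. In macrophages the core stood at 0.720 of the tumour level among control cells and 0.722 among UBD cells, and the regulatory particle at 0.665 and 0.705. In T cells the core stood at 0.802 and 0.809 and the regulatory particle at 0.593 and 0.638. NK cells had 0.742 and 0.836 for the core and 0.528 and 0.699 for the regulatory particle. Osteoclast-like cells had 0.831 and 0.741 for the core and 0.780 and 0.744 for the regulatory particle. Endothelial cells, at 0.648 and 0.821 for the core and 0.674 and 0.853 for the regulatory particle, were lower in the core. These ratios compare classes whose median depth differed, 4025 and 5695 UMIs in macrophages against 23300.5 and 17354 UMIs in tumour cells, and the part of depth was not tested across classes. Over genes with at least 50 UMIs in both classes compared, the median log2 ratio to tumour cells was -0.11 in control and -0.23 in UBD macrophages. It was 0.11 and 0.07 in T cells and 0.11 and 0.21 in NK cells. Osteoclast-like cells had 0.07 and -0.16, and endothelial cells 0.17 and -0.0049. In macrophages the core log2 ratio was -0.47 in both libraries, and the regulatory one -0.59 and -0.51.

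Gene by gene, most members were below the tumour level in macrophage, T and osteoclast-like cells, comparisons that share the tumour cells of each library. In all 6 comparisons Psma1, Psma2, Psmd8 and Psmd13 were above it. Psma1, an alpha subunit, ran from 1.24 to 1.41 times the tumour level, and Psmd8, a lid subunit, from 1.10 to 1.73 times. At least 1.25-fold below tumour cells in both libraries were 7 of 11 core, 12 of 18 regulatory and 3 of 3 chaperone genes in macrophages, where 37.1% of all genes were. In T cells these were 4 of 11, 12 of 18 and 2 of 2 with enough UMIs (26.8% of all genes), and in osteoclast-like cells 3 of 11, 11 of 18 and 1 of 2 (29.3%). At least 1.25-fold above were Psma1 and Psmd8 in macrophages (28.2% of all genes), Psma1, Psma2 and Psmd13 in T cells (35.2%), and Psma6, Psmd8 and Psmd10 in osteoclast-like cells (34.2%).

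**Figure D5:**
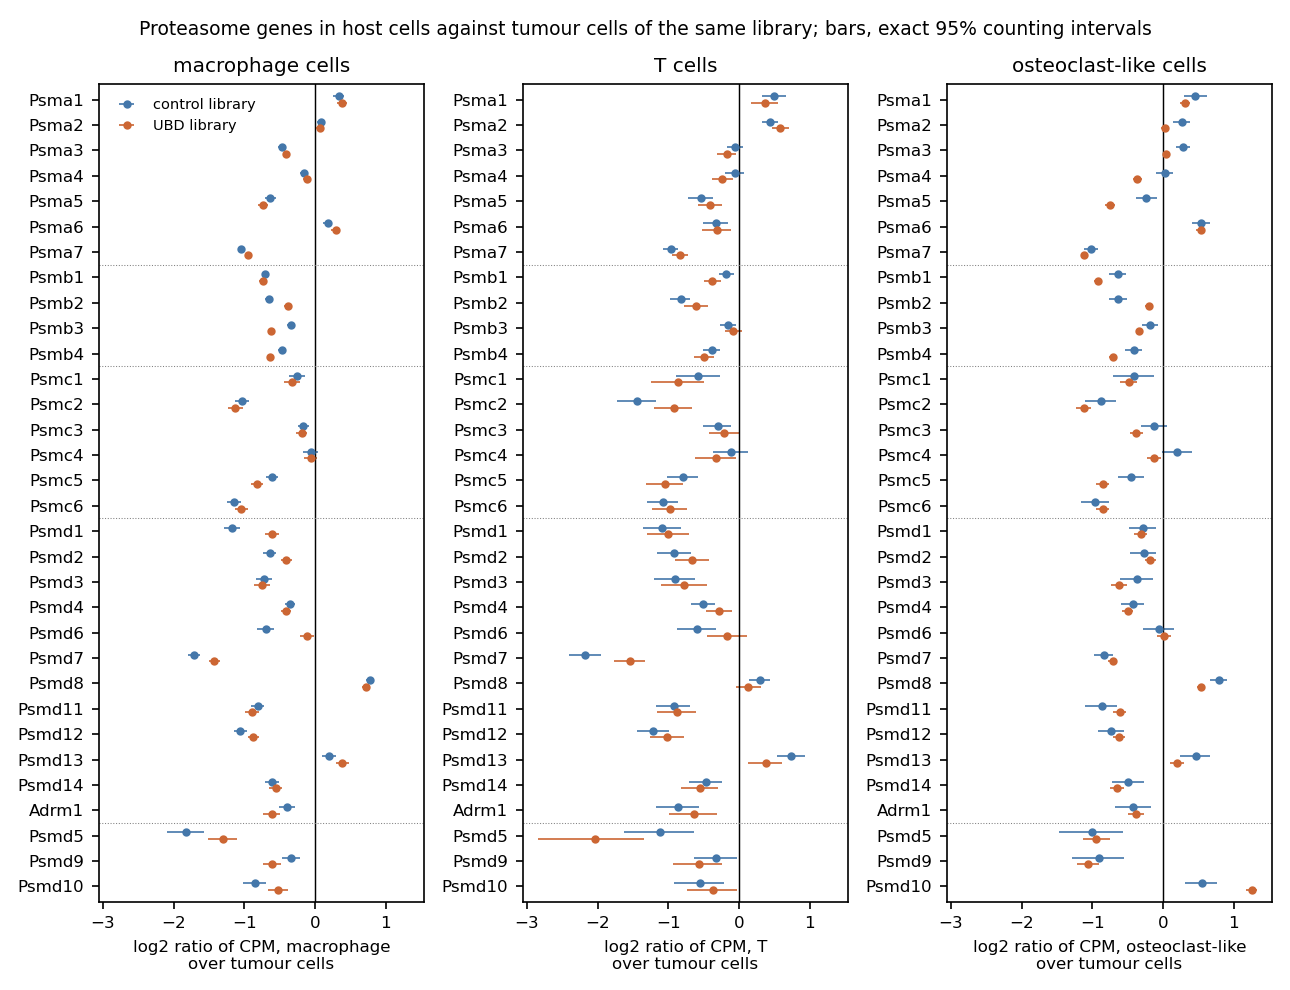
The log2 ratio of CPM in macrophage, T and osteoclast-like cells over tumour cells of the same library (horizontal axes) for each of the 32 genes, control library in blue and UBD library in orange, with exact 95% counting intervals. Most points lie left of 0 in both libraries, and Psmd7 lies lowest in T cells in the control library. Psma1, Psma2, Psmd8 and Psmd13 lie right of 0 in all 3 panels.

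Psmd7 differed widely between classes. It was at 430 and 365 CPM in tumour cells, 131 and 136 CPM in macrophages, 95 and 125 CPM in T cells, 80.9 and 82.1 CPM in NK cells, 240 and 223 CPM in osteoclast-like cells and 197 and 211 CPM in endothelial cells. Its log2 ratio to tumour cells was -1.71 and -1.43 in macrophages and -2.18 and -1.54 in T cells, against -0.84 and -0.71 in osteoclast-like cells. Psma7, an alpha subunit, lay near 0.5 of the tumour level in macrophage, T and osteoclast-like cells, with ratios from 0.463 to 0.562. Psmb2, the gene that stood apart in tumour cells, was at 432 and 328 CPM there, 274 and 251 CPM in macrophages, 243 and 216 CPM in T cells, 249 and 293 CPM in NK cells, 278 and 286 CPM in osteoclast-like cells and 275 and 396 CPM in endothelial cells. Tumour cells had the highest Psmb2 level of the 6 classes in the control library, and endothelial cells, from 45 UMIs, the highest in the UBD library, with an interval that included the tumour level (ratio 1.21, 0.881 to 1.62).

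Genes that work with the proteasome were read in tumour cells from lists of related genes. Of 6 catalytic beta subunits, 3 passed 1.5-fold, all inducible and lower with UBD: Psmb8 at 99.0 and 47.3 CPM (ratio 0.478, 0.464 to 0.492), Psmb9 at 40.8 and 21.0 CPM (ratio 0.515, 0.493 to 0.539) and Psmb10 at 151 and 98.6 CPM (ratio 0.654, 0.640 to 0.668). Of all genes, 17.4% were lower by that much. These ratios pool cells of both interferon states, and responding cells were 75.7% of control and 15.9% of UBD tumour cells. Within responding cells the 3 genes summed to 339 CPM in control and 390 CPM in UBD cells, and within the others to 165 and 129 CPM. The part of the interferon state in the pooled ratios was not tested. Their constitutive counterparts differed less, Psmb6 at 446 and 376 CPM (ratio 0.842) and Psmb5 at 289 and 260 CPM (ratio 0.898). Among 5 core assembly chaperones none passed, with Pomp, which matures the beta rings, at 498 and 571 CPM (ratio 1.15) and Psmg4 at 80.8 and 86.3 CPM (ratio 1.07). None of 5 activators and inhibitors passed, with the activator subunits Psme1 at 195 and 154 CPM (ratio 0.791) and Psme2 at 151 and 144 CPM (ratio 0.953).

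None of 7 other proteasome-bound factors passed 1.5-fold, and the small lid subunit Sem1 was at 715 and 710 CPM (ratio 0.994), with the thioredoxin-like Txnl1 at 234 and 214 CPM (ratio 0.915). None of 4 genes of the NRF1 axis passed. Nfe2l1, which encodes NRF1, was at 67.3 and 75.1 CPM (ratio 1.12) and its relative Nfe2l2 at 142 and 112 CPM (ratio 0.789). Neither did any of 8 shuttle and unfolding factors, with Vcp, the segregase that extracts substrates, at 328 and 234 CPM (ratio 0.712) and the shuttle Rad23b at 117 and 84.6 CPM (ratio 0.722). Among ubiquitin genes, Ubb was at 3390 and 2595 CPM (ratio 0.765) and Rps27a at 6169 and 7391 CPM (ratio 1.20). Of 5 genes of the FAT10 pathway, Ubd alone passed (ratio 3.31, 2.37 to 4.72, from 44 and 179 UMIs; 8.31% of all genes were higher by that much). Sqstm1, a receptor that binds FAT10, was at 342 and 269 CPM (ratio 0.786), and Ube2z, the E2 enzyme for FAT10, at 47.0 and 45.7 CPM (ratio 0.972).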

How the data were processed

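UMI counts per gene and barcode were deposited by the authors as 1 sparse matrix per library. Cell Ranger, STAR and mm10 are named in the submitters' processing notes, and the matrices give 3.1.0 as software version, per the file headers. The sources used here do not state how barcodes were called or whether strand was used.

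Barcodes were kept with at least 200 genes, 500 UMIs and at most 20% mitochondrial UMIs (14353 of 14890 control, 13619 of 14158 UBD). Scrublet in scanpy 1.11.5 (expected rate 0.1, exact neighbours) removed 766 and 598 predicted doublets. A cell was tumour with 5 or more Cdkn2a UMIs and 300 CPM, macrophage with 3 C1qa UMIs and 500 CPM, T, NK or endothelial with 1 UMI of Cd3e, Ncr1 or Cdh5, and osteoclast-like with 2 UMIs of Acp5 and of Ctsk, which outranked macrophage. Cells positive for several classes (272 and 279) or none were left out, so the names stand for the marker rule. Free RNA was not removed. Cycling and interferon states needed 3 UMIs and 200 CPM over 8 and 6 genes.

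Counts were summed per class and given as CPM. Their intervals are exact Poisson limits, and those of ratios come from the exact binomial conditional on the total (scipy 1.17.1, numpy 2.4.6, pandas 2.3.3, Python 3.11.15), checked on simulated data. UMIs are counted at the 3' end, so levels of different genes were not ranked.

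No test was run. Genes with at least 50 UMIs over both libraries entered the shares past 1.5-fold and 1.25-fold. In tumour cells and macrophages the 2 highest and 2 lowest ratios of each subunit group are named, in other classes the highest and lowest core and regulatory ratio, everywhere each member past 1.5-fold with an interval that excludes 1, and of each list of related genes the 2 with most UMIs and any past 1.5-fold, with 1 exception that is not reported here. Further members are named for a role or a pattern seen in the values. Members and lists were chosen with earlier results of these data known. Coordinates are from GENCODE vM21 on GRCm38, and promoters from RefSeq. Alternatives were other cell filters, doublets kept, other class rules, scaling, equal cell weights and no UMI minimum. Depth ranges, 15000 to 30000 UMIs for tumour cells and 3000 to 8000 for macrophages, were added after seeing the data.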

Additional observations from a re-analysis of the deposited data

Results flagged for a closer look

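In 3 instances a class stood on the other side of no difference from tumour cells, each with an interval of the UBD over control ratio that left out 1, and the differences between classes were not tested. The summed core level in osteoclast-like cells had a log2 ratio of -0.15, against 0.02 in tumour cells. The summed regulatory level had a log2 ratio of 0.34 in NK cells and of 0.28 in endothelial cells, against -0.06 in tumour cells. The NK and endothelial values rest on 20 and 22 UBD cells, and the regulatory value of tumour cells changed sign in cells of 15000 to 30000 UMIs.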

How the results depend on the processing

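No paired analysis was possible because each group is 1 library and the labels give no replicate numbers, and no replicate could be left out. Of 88 alternatives for summed levels 59 stayed within the counting interval, 25 moved outside it and 4 reversed, and of 44 for counts of genes past 1.5-fold 34 stayed within 1.5 times and 10 moved; the cause was not tested. Values below are log2 ratios, UBD over control. In tumour cells the core, 0.02, became -0.0010 under the stricter cell filter, 0.0027 under the stricter class rule, 0.073 without mitochondrial, ribosomal, Gm42418 and Malat1 counts, 0.0463 with median-ratio scaling, 0.0917 in cells of 15000 to 30000 UMIs and 0.14 with equal cell weights. The regulatory particle, -0.06, became -0.0756 (cell filter), -0.0085 (without those counts), -0.0351 (median-ratio scaling), 0.10 (depth range) and 0.0021 (equal weights). In macrophages, core and regulatory values became 0.10 and 0.10 without those counts and 0.11 and 0.10 with median-ratio scaling, and the 1 gene past 1.5-fold became 0 with doublets kept, the stricter cell filter, host markers first and the stricter class rule. In T cells the core became 0.10 with host markers first and 0.12 with equal weights, and the count 0 with host markers first and the stricter class rule. In NK cells the core became 0.0088 (stricter class rule), the regulatory particle 0.013 (host markers first) and 0.0874 (stricter class rule), and the count of 11 became 4 and 7. In osteoclast-like cells the core, -0.15, became -0.0806 (cell filter), -0.076 (host markers first) and -0.10 (without those counts), and the regulatory particle, -0.13, became -0.0682, -0.0281 and, with equal weights, 0.0025. In endothelial cells host markers first gave 0.0169 (core) and 0.0442 (regulatory), the stricter class rule 0.13 (core), and the count of 9 became 0 with host markers first and 15 with no UMI minimum. Single genes past 1.25-fold, with an interval that excluded 1, that reversed were Psmc5 in NK cells (-0.30, stricter class rule) and, in endothelial cells, Psma2 (-0.0067 with host markers first, -0.28 with the stricter class rule), Psma7 (-0.0874, host markers first) and Psmc4 (-0.27, stricter class rule). Of genes closer to no difference or with wider intervals, 14 of the 17 lower in UBD tumour cells, 8 of the 15 lower and 1 of the 17 higher in UBD macrophages turned, as did Psmb4 in NK cells (0.51), Psmc2 in endothelial cells (0.43) and Psmb2 in osteoclast-like cells (-0.03). NK and endothelial values are limited by 20 and 22 UBD cells.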
